A study of Mus musculus with 9 samples.

Results

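The matrix metalloproteinases (Mmp genes), the Adamts proteases and the tissue inhibitors of metalloproteinases (Timp genes) were read in mouse primary renal tubular epithelial cells. Members were chosen by name: every protein-coding row of the expression table whose symbol is Mmp, Adamts or Timp followed by its number. This gave 44 genes of 31167 rows, namely 21 Mmp, 19 Adamts and 4 Timp genes. The naming rule uses no measured value, but the families were chosen with earlier results of these data known. Of these, 24 (12 Mmp, 9 Adamts and 3 Timp genes) reached a mean of 0.5 FPKM over the 9 libraries and were tested, and 20 did not.

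Matrix metalloproteinases are zinc enzymes that cut collagens, elastin, laminins and many cell surface proteins. Most are secreted as inactive proenzymes, and a subgroup stays anchored in the plasma membrane. Adamts proteases are secreted and carry thrombospondin repeats, with which they hold on to the matrix, and their best known substrates are large proteoglycans and the propeptides of collagens. Timp proteins block the active site of these enzymes. In the kidney the balance between the enzymes and the inhibitors is studied for the turnover of the tubular basement membrane, for tubule repair and for fibrosis.

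All cells came from kidneys of C57BL/6 mice and were grown to a partly confluent layer, with 3 libraries in each of 3 groups. Sham cells were the controls. H/R cells were kept in medium without glucose at 1.0% oxygen for 6 h and then in complete medium for 18 h, which mimics ischemia and reperfusion in culture. EGR1OV cells received a plasmid that expresses the transcription factor Egr1 from a CMV promoter, which is active in most cell types, by lipid transfection. The study describes its arms as H/R, the plasmid or neither, so that Sham was untreated. The sources used here name no empty-vector group in this comparison, and the plasmid, the transfection and Egr1 cannot be told apart. They also do not say whether the replicates were separate cultures or animals, and the p-values then measure only the spread between these libraries.

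Values are FPKM, fragments corrected for exon length and for the depth of the library, and being per length they can be compared between genes. The reads recovered from them gave a depth of 16183617 to 18384024 per library. Egr1 was at 6.09 to 6.91 FPKM in Sham, 7.48 to 8.57 in H/R and 40.1 to 45.7 in EGR1OV, so the libraries followed their labels. Genes of tubule epithelium (Krt8, Krt18, Cdh1, Epcam, Pax8, Pax2 and Cdh16) were all expressed, with a summed level of 1889 to 1928 FPKM in Sham and 1231 to 1335 in EGR1OV. The lower sum came mainly from Krt8 and Krt18 (-0.71 and -0.73 on the log2 scale), and Cdh16 was also lower (-0.30). Cdh1, Epcam, Pax2 and Pax8 had changes of 0.23, 0.39, 0.36 and 0.04, and the median of the list was 0.04. Markers of proximal tubule were low (5.44 to 5.53 FPKM in Sham, 1.92 to 2.21 in EGR1OV, summed over 5 genes), and the proximal transporter Slc34a1 had a mean of 0.00434 FPKM in Sham and of 0 in EGR1OV. The cultures also held transcripts used as markers of other cell types, and which cells made them was not tested. Macrophage markers summed to 142 to 146 FPKM in Sham, 117 to 125 in H/R and 22.8 to 27.5 in EGR1OV. Smooth muscle markers summed to 3127 to 3245, 2865 to 3075 and 1202 to 1283 FPKM. Most of this was Acta2, with a mean of 2947 FPKM in Sham, where Cnn1, Tagln and Myh11 had means of 251, 4.37 and 2.83 FPKM. In such bulk libraries, fewer cells of a type and less RNA per cell cannot be told apart.

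The start regions of the genes are shown first, since several Mmp genes are known to be induced through AP-1 sites there and Egr1 binds its own letters. RefSeq windows (GRCm38.p6, from 250 bases before to 50 bases after each start) were found for 30 of the 44 members. A group of 8 Mmp genes lies in a row on chromosome 9, from 7272514 to 7699585, all on the plus strand (Mmp13, Mmp12, Mmp3, Mmp10, Mmp8, Mmp27, Mmp20 and Mmp7 in this order). The letters TGANTCA, which AP-1 factors such as Fos and Jun bind and which read the same on both strands, stood in the windows of 6 of these 8 genes and of 0 of the other 22 members. Among all 32851 windows of this length, 7.81% held them. The stretches below are the bases just before the RefSeq start, read 5′ to 3′ on the strand of the gene, with TGANTCA in capitals; they show where the shared letters stand.

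Mmp13 (chr9:7272394-7272513, + strand): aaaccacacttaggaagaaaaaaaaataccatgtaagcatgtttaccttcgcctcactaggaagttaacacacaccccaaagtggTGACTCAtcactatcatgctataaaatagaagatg
Mmp12 (chr9:7347254-7347373, + strand): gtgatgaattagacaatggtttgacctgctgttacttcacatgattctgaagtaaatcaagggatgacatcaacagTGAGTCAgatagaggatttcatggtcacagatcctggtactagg
Mmp3 (chr9:7445702-7445821, + strand): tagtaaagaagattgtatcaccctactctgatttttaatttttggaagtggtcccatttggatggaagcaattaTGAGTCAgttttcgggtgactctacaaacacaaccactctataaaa
Mmp10 (chr9:7502222-7502341, + strand): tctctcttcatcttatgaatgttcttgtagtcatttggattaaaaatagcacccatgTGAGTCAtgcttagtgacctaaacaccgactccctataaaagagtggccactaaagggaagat
Mmp20 (chr9:7628111-7628230, + strand): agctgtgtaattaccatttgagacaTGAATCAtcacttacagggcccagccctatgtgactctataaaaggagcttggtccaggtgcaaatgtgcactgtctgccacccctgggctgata
Mmp7 (chr9:7691970-7692089, + strand): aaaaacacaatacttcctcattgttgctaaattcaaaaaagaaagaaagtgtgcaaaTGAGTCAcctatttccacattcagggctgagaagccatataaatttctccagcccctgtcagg

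Counted back from the base before the start as -1, the letters ran from -35 to -29 in Mmp13, from -44 to -38 in Mmp12, from -46 to -40 in Mmp3, from -63 to -57 in both Mmp10 and Mmp7, and from -95 to -89 in Mmp20. Mmp12 and Mmp7 each have 2 RefSeq starts, and only 1 window of each held the letters, so that 6 of 10 windows of the row did. The Mmp12 start shown lies inside the gene as the table places it (7344381 to 7369499).

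The letters GCGNGGGCG, bound by Egr factors, were searched on both strands, since Egr1 was the factor overexpressed. They stood in the windows of 4 members, Adamts14, Mmp11, Mmp14 and Mmp24, and in 5.55% of all windows. In the stretches below they are in capitals, and in Adamts14 both copies are on the opposite strand. A further copy in Adamts14 lies after the start and is not printed, and its stretch stops where the table starts the gene. The Mmp11 start shown lies inside the gene as placed in the table (75923222 to 75936496, minus strand).

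Adamts14 (chr10:61273439-61273539, - strand): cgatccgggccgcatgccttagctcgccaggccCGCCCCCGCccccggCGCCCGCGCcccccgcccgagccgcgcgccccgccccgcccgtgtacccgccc
Mmp11 (chr10:75932503-75932622, - strand): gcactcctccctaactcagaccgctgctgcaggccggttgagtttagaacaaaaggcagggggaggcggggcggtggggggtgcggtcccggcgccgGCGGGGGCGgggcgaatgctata
Mmp14 (chr14:54431478-54431597, + strand): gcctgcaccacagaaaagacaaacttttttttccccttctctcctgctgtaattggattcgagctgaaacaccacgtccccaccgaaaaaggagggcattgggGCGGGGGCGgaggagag
Mmp24 (chr2:155775222-155775341, + strand): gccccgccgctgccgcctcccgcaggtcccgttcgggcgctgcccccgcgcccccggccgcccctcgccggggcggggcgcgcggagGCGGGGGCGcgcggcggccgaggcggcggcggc

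A match is a run of letters and not a shown binding site, and for 14 members (Adamts4, Adamts5, Adamts6, Adamts7, Adamts8, Adamts10, Adamts15, Adamts16, Adamts19, Mmp2, Mmp9, Mmp16, Mmp17 and Mmp19) no window was read. The other motifs searched were the NF-kB consensus (Mmp25; 4.51% of windows), the interferon-stimulated response element (Mmp13; 3.44%) and the hypoxia response core ACGTG, found in 8 members (Adamts3, Adamts17, Adamts18, Adamts20, Mmp7, Mmp14, Mmp27 and Timp1) and in 19.6% of windows.

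The levels of the 24 tested members spanned a wide range, as the plot of FPKM by library shows. In Sham, the Mmp genes summed to 215 ± 3.08 FPKM (SD, n = 3), of which the membrane-type Mmp14 made up 41.2%, the gelatinase Mmp9 25.1% and the gelatinase Mmp2 13.8%. The Adamts genes summed to 114 ± 2.93 FPKM, with Adamts1 at 44.2% and Adamts5 at 36.2%. The Timp genes summed to 234 ± 5.13 FPKM, with Timp2 at 43.5%, Timp1 at 41.2% and Timp3 at 15.3%. The summed level of the inhibitors was thus slightly above that of the whole Mmp family, and 2 or 3 genes made up most of each sum.

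**Figure D1:**
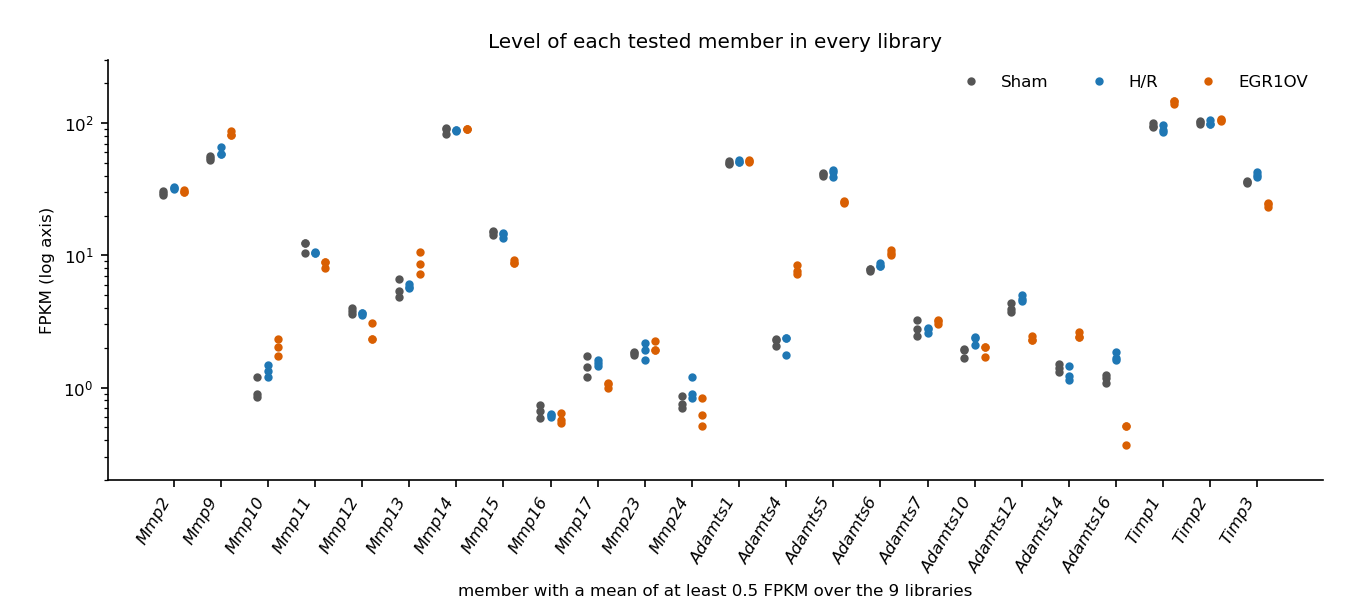
FPKM on a log axis of the 24 members with a mean of at least 0.5 FPKM, with 1 point per library and 3 libraries each of Sham (grey), H/R (blue) and EGR1OV (orange). Timp1, Timp2 and Mmp14 were the highest, and the EGR1OV points stand apart from the other 6 most widely in Adamts4 and Adamts16.

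To ask which members differ between cells given the Egr1 plasmid and untreated cells, EGR1OV was set against Sham. The family moved in both directions: of 24 tested members, 13 were called, at an adjusted p under 0.05 and at least 1.3-fold, against 16.4% of all 13985 rows tested. Timp1, Mmp9, Mmp10, Mmp13, Adamts4 and Adamts14 were higher in EGR1OV (6 of 24; 9.87% of all rows), and Timp3, Mmp11, Mmp12, Mmp15, Adamts5, Adamts12 and Adamts16 were lower (7 of 24; 6.51%). The median log2 change was 0.03 over the members and 0.02 over all rows, and the median size of change regardless of sign was 0.41 over the members and 0.16 over all rows. The EGR1OV and Sham libraries did not overlap in 17 of the 24 members, and in 55.7% of all rows. The changes are differences in log2(FPKM + 1), which understates those of low genes, and each adjusted p is from limma with Benjamini-Hochberg adjustment over all rows. For single members the exact two-sided permutation test of 3 against 3 libraries gave at best 0.1, the smallest value it can reach, which was its value for each called member.

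**Figure D2:**
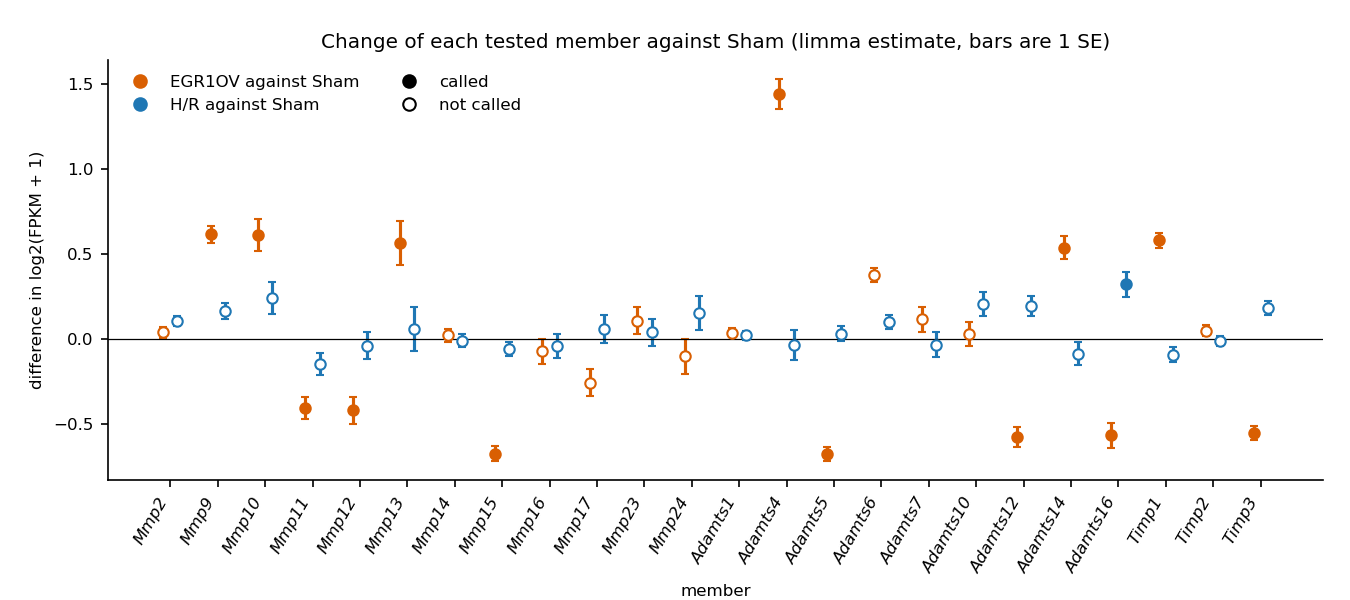
Difference in log2(FPKM + 1) of each tested member from Sham, for EGR1OV (orange) and H/R (blue), as the limma estimate with 1 SE; filled points are called. In EGR1OV 13 points are filled, 6 above and 7 below 0, and Adamts4 lies highest at 1.44, while in H/R only Adamts16 is filled.

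Among the inhibitors, Timp1 and Timp3 moved in opposite directions and Timp2 held its level. Timp1, a secreted inhibitor that many cells induce in inflammation and repair (chromosome X, bases 20870166 to 20874735, plus strand), was at 93.6, 95.3 and 100.1 FPKM in Sham, 96.3, 85.6 and 89.2 in H/R, and 139.6, 147.6 and 146.1 in EGR1OV. All 3 EGR1OV libraries lay above the other 6, and the H/R and Sham libraries overlapped. The group means were 96.3 ± 3.34, 90.4 ± 5.46 and 144.4 ± 4.24 FPKM (SD, n = 3 each), and the change in EGR1OV was 0.58 (SE 0.045, adjusted p = 6.61e-06).

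Timp3 binds to the extracellular matrix and inhibits Adamts and Adam proteases besides the Mmp enzymes (chromosome 10, bases 86300372 to 86349506, plus strand). It was at 36.4, 35.5 and 35.7 FPKM in Sham, 39.2, 40.6 and 42.9 in H/R, and 25.0, 23.1 and 24.4 in EGR1OV. The 3 groups did not overlap, with H/R highest and EGR1OV lowest. Against Sham, Timp3 fell by 0.55 on the log2 scale in EGR1OV (SE 0.039, adjusted p = 3.54e-06), while in H/R the change was 0.18 (adjusted p = 0.0201), under the 1.2-fold needed for a call. Timp3 lies within Syn3 on the opposite strand and shares 1733 exon bases with it. Syn3 was at 0.156, 0.121 and 0.169 FPKM in Sham, H/R and EGR1OV, far below Timp3.

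The ratio of Timp1 to Timp3 FPKM within a library averaged 2.69 ± 0.115 for Sham, 2.21 ± 0.209 for H/R and 5.99 ± 0.407 for EGR1OV. It rests on the same values as above and is a description. Timp2, which also takes part in the activation of pro-MMP2 at the cell surface together with MMP14 (chromosome 11, bases 118301069 to 118355740, minus strand), was at 99.3, 102.5 and 103.7 FPKM in Sham, 98.5, 98.7 and 105.7 in H/R, and 104.0, 106.6 and 105.6 in EGR1OV. Its change in EGR1OV was 0.05 (SE 0.032, adjusted p = 0.241), and no comparison called it. Timp4 (chromosome 6, bases 115241892 to 115252205), the inhibitor best known from heart, gave 1 read in 1 H/R library and 0 reads in the other 8. A count of 0 allows up to 3 reads per library, so Timp4 was not detectable at this depth.

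**Figure D3:**
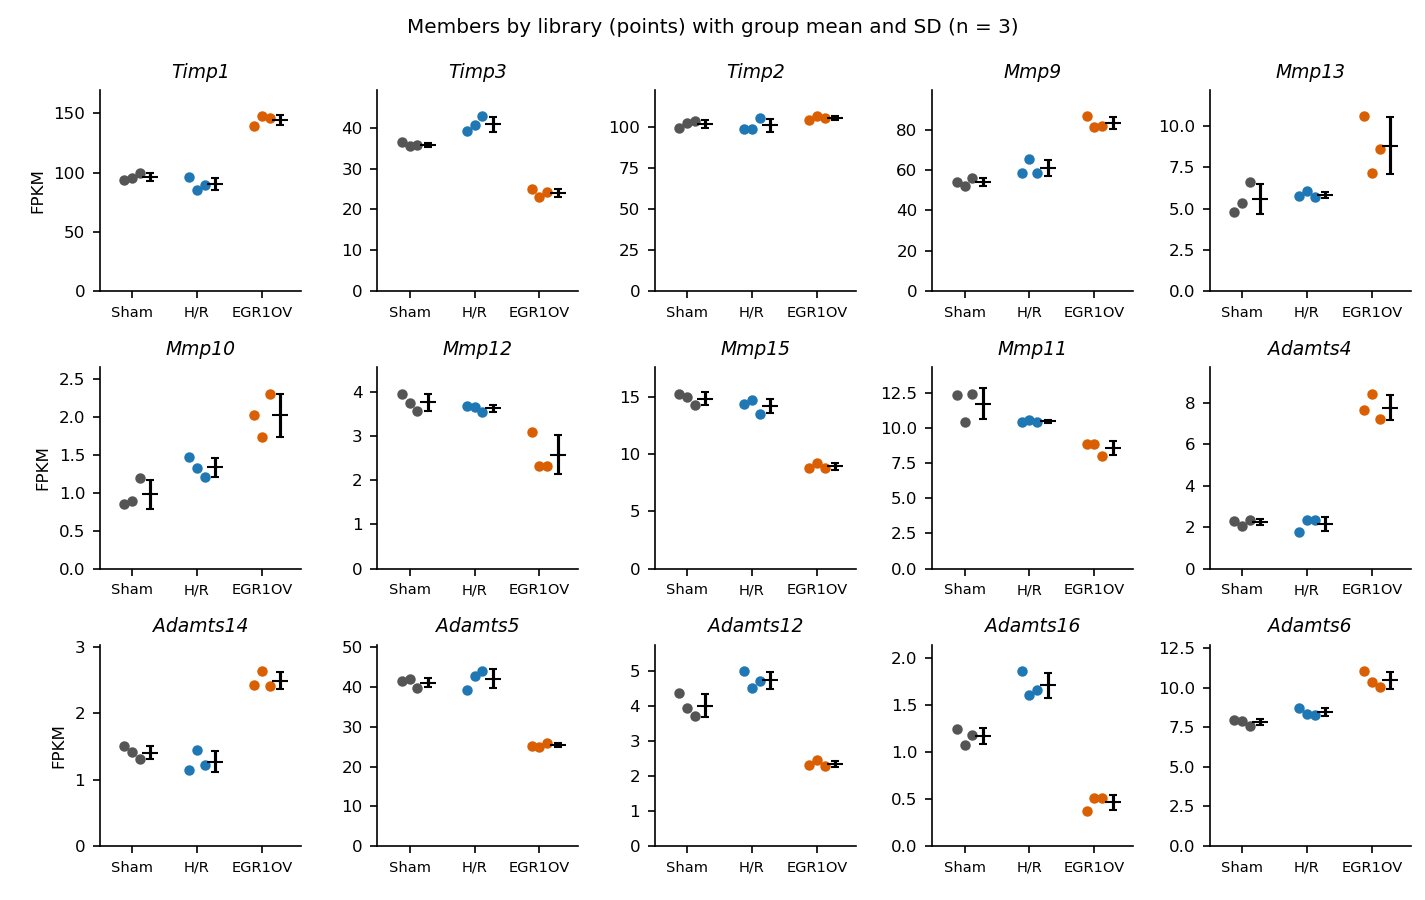
FPKM by library of 14 members described in full and of Adamts6, on linear axes from 0, with the group mean and SD beside the 3 points of each group. Timp1, Mmp9, Mmp13, Mmp10, Adamts4 and Adamts14 are higher in EGR1OV than in Sham, Timp3, Mmp12, Mmp15, Mmp11, Adamts5, Adamts12 and Adamts16 are lower, and Timp2 overlaps between H/R and EGR1OV.

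Of the gelatinases, which digest denatured collagen and the type IV collagen of basement membranes, Mmp9 was higher in EGR1OV and Mmp2 was not called. Mmp9 (chromosome 2, bases 164940780 to 164955850, plus strand) was at 54.1, 52.2 and 56.1 FPKM in Sham, 58.7, 65.5 and 58.5 in H/R, and 86.7, 81.6 and 82.0 in EGR1OV. The groups did not overlap and stood in the order Sham, H/R, EGR1OV. Its change was 0.61 in EGR1OV (SE 0.048, adjusted p = 6.98e-06) and 0.17 in H/R (SE 0.048, adjusted p = 0.0572). Neutrophils are a known source of Mmp9, and the neutrophil markers S100a8, S100a9, Ly6g, Camp and Ngp summed to 0 to 0.137 FPKM in Sham and 0.279 to 0.461 in EGR1OV. Ngp was at 0 throughout, S100a8 and S100a9 were at 0 in Sham and H/R, and the part of these cells in the level of Mmp9 was not tested. Since Timp1 rose beside Mmp9, the ratio of Timp1 to Mmp9 FPKM was alike in Sham (1.78 ± 0.0487) and EGR1OV (1.73 ± 0.108), and was 1.49 ± 0.17 in H/R.

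Mmp2 (chromosome 8, bases 92827291 to 92853420), the gelatinase that fibroblasts and many epithelial cultures make without induction, had means of 29.8 ± 1.03 FPKM for Sham, 32.1 ± 0.535 for H/R and 30.6 ± 0.677 for EGR1OV. Its change was 0.04 in EGR1OV (adjusted p = 0.365) and 0.11 in H/R (adjusted p = 0.0637), and the Sham and EGR1OV libraries overlapped.

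The collagenase Mmp13, which cuts intact fibrillar collagen (chromosome 9, bases 7272514 to 7283331), was at 4.82, 5.36 and 6.62 FPKM in Sham, 5.76, 6.04 and 5.70 in H/R, and 10.6, 7.16 and 8.65 in EGR1OV. All EGR1OV libraries were above the other 6, but they were also the most spread, with a mean of 8.81 ± 1.73 FPKM. The change from Sham was 0.57 (SE 0.128, adjusted p = 0.00566), and against H/R the call was lost without EGR1OV replicate 1 (0.38, adjusted p = 0.0251), being then under 1.3-fold.

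The stromelysins Mmp3 and Mmp10 cut proteoglycans, laminin and fibronectin and activate other Mmp proenzymes. Mmp11 is listed with them here by name, and the members of this group did not move together. Mmp10 (chromosome 9, bases 7502352 to 7510240) was at 0.848, 0.899 and 1.196 FPKM in Sham, 1.47, 1.33 and 1.21 in H/R, and 2.03, 1.74 and 2.31 in EGR1OV. The groups stood in the order Sham, H/R, EGR1OV, with the highest Sham and the lowest H/R library next to each other. Mmp10 rose by 0.61 in EGR1OV (SE 0.095, adjusted p = 0.00063), and its change in H/R was 0.24 (adjusted p = 0.134). Mmp11, which is processed by furin before secretion (chromosome 10, bases 75923222 to 75936496, minus strand), was at 12.3, 10.4 and 12.5 FPKM in Sham, 10.4, 10.6 and 10.4 in H/R, and 8.89, 8.88 and 8.02 in EGR1OV. It was lowest in EGR1OV, and H/R lay at the level of Sham replicate 2. The change of -0.41 (SE 0.064, adjusted p = 0.000702) was close to the threshold: without Sham replicate 1, Sham replicate 3 or EGR1OV replicate 3 it came to -0.37, -0.37 and -0.36 and was no longer called. Mmp3 did not reach the filter.

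Mmp12, the metalloelastase known chiefly from macrophages (chromosome 9, bases 7344381 to 7369499), was at 3.97, 3.76 and 3.57 FPKM in Sham, 3.69, 3.67 and 3.54 in H/R, and 3.09, 2.33 and 2.32 in EGR1OV. EGR1OV was lower in all 3 libraries, and Sham and H/R overlapped. The change from Sham was -0.42 (SE 0.08, adjusted p = 0.00221), and it was no longer called without EGR1OV replicate 2 (-0.37) or EGR1OV replicate 3 (-0.37). Macrophage markers moved with it: 8 of the 9 tested were lower in EGR1OV, against 6.51% of all rows. The median of their log2 changes was -1.29, and none of the 10 was at 0 in every library of a group. In H/R, 2 of them were lower and the list summed to 117 to 125 FPKM. The part of these transcripts in the level of Mmp12 was not tested.

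The membrane-type Mmp genes encode enzymes that stay at the cell surface. Mmp14, the main activator of pro-MMP2 (chromosome 14, bases 54431612 to 54445364), was the highest Mmp in every group, with 88.8 ± 4.92 FPKM for Sham, 88.0 ± 1.39 for H/R and 89.9 ± 0.628 for EGR1OV. Its change in EGR1OV was 0.02 (SE 0.037, adjusted p = 0.689), and the ratio of Mmp14 to Timp2 FPKM was 0.872 ± 0.0615, 0.872 ± 0.0322 and 0.853 ± 0.0157 in Sham, H/R and EGR1OV. Mmp15, its close relative (chromosome 8, bases 95352268 to 95375080), was at 15.3, 15.1 and 14.3 FPKM in Sham, 14.4, 14.8 and 13.6 in H/R, and 8.79, 9.29 and 8.79 in EGR1OV. The EGR1OV libraries lay well below the other 6, which overlapped. Mmp15 fell by 0.67 on the log2 scale (SE 0.042, adjusted p = 1.37e-06). Tubule keratins fell over the same libraries, with a mean of 1014 FPKM in Sham and 618 in EGR1OV for Krt8. Cdh16 was at 24.3 and 19.6 FPKM, whereas Cdh1 was at 86.2 and 102 FPKM. The part of cell makeup in the level of Mmp15 was not tested.

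The other membrane-type members were low. Mmp16 had means of 0.665, 0.617 and 0.581 FPKM and Mmp24 of 0.773, 0.977 and 0.656 in Sham, H/R and EGR1OV, and neither was called. Mmp24 shares 637 exon bases with BC029722 on the opposite strand, which was at 14.98, 15.3 and 11.2 FPKM, so the reads of Mmp24 are uncertain. Mmp17, held by a lipid anchor, was at 1.46 ± 0.266, 1.55 ± 0.0808 and 1.05 ± 0.0418 FPKM. Its change of -0.26 in EGR1OV on the log2(FPKM + 1) scale had an adjusted p of 0.0294 by limma but was under 1.3-fold. Mmp17 was called lower against Sham with a pseudocount of 0.1 (-0.43, adjusted p = 0.026 by limma) and by voom on recovered reads (-0.46, adjusted p = 0.00438). Mmp23, a small member without the usual hemopexin domain, had means of 1.81, 1.90 and 2.04 FPKM and was not called.

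Adamts4 and Adamts5 are the principal enzymes that cut aggrecan and versican, and they moved in opposite directions in EGR1OV. Adamts4 (chromosome 1, bases 171250421 to 171260637, plus strand) was at 2.28, 2.06 and 2.34 FPKM in Sham, 1.76, 2.36 and 2.36 in H/R, and 7.65, 8.45 and 7.24 in EGR1OV. Every EGR1OV library was above 7 FPKM and every other library below 3, so the mean was 3.49 times that of Sham. On the log2(FPKM + 1) scale Adamts4 was the only member called at 2-fold, with a change of 1.44 (SE 0.086, adjusted p = 1.06e-06). The EGR1OV means of Adamts16 and Mmp10 were 0.397 and 2.07 times those of Sham, and by voom on recovered reads their changes were -1.33 and 1.04.

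Adamts5 (chromosome 16, bases 85858170 to 85901125, minus strand) was at 41.6, 42.1 and 39.8 FPKM in Sham, 39.4, 42.9 and 44.0 in H/R, and 25.3, 24.9 and 26.0 in EGR1OV. The EGR1OV libraries were lower and close together, while Sham and H/R overlapped. Adamts5 fell by 0.68 on the log2 scale (SE 0.042, adjusted p = 1.45e-06). The ratio of Adamts4 to Adamts5 FPKM averaged 0.0542 ± 0.00493 for Sham, 0.0511 ± 0.00562 for H/R and 0.307 ± 0.0305 for EGR1OV, so Adamts5 remained the more abundant of the pair in every library. Adamts1, the third enzyme of this kind and the neighbour of Adamts5 on chromosome 16 (85793827 to 85803113), was at 50.3 ± 1.17, 51.0 ± 0.997 and 51.6 ± 0.92 FPKM and was not called (change in EGR1OV 0.04, adjusted p = 0.301).

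**Figure D4:**
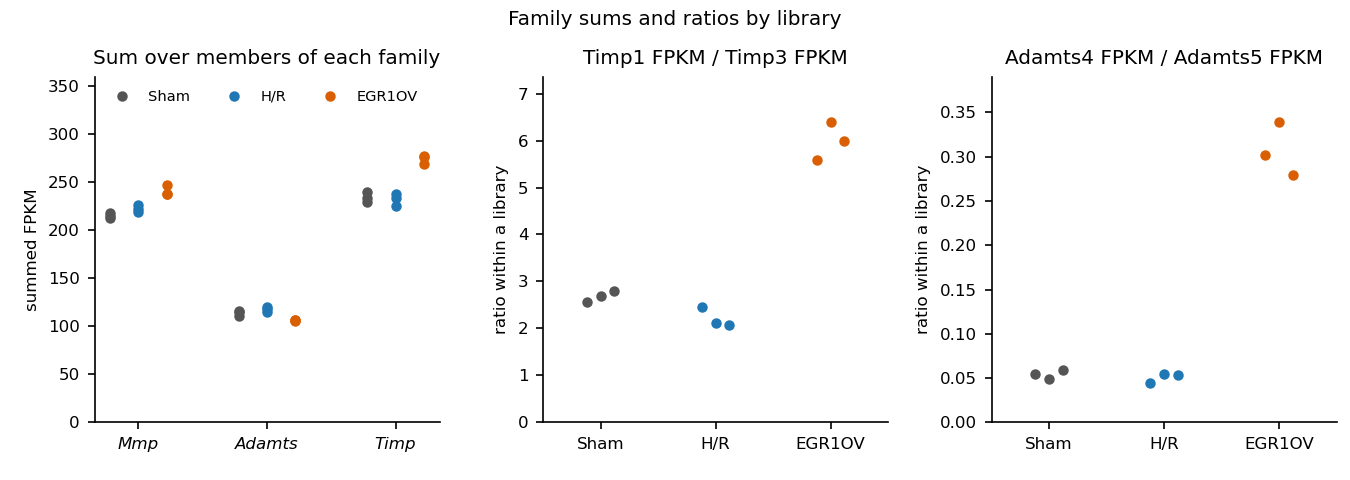
Left, FPKM summed over the members of each family, with 1 point per library; middle and right, the ratios of Timp1 to Timp3 and of Adamts4 to Adamts5 FPKM within each library, on axes from 0. The Timp and Mmp sums are highest in EGR1OV (274 and 241 FPKM on average), the Adamts sum is lowest there (106 FPKM), and both ratios are highest in the 3 EGR1OV libraries.

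The 3 procollagen N-proteinases trim the amino-terminal propeptide of fibrillar collagens, and Adamts14 was the one expressed above the filter (chromosome 10, bases 61197112 to 61273438, minus strand). It was at 1.51, 1.41 and 1.31 FPKM in Sham, 1.14, 1.44 and 1.23 in H/R, and 2.43, 2.64 and 2.41 in EGR1OV. All EGR1OV libraries were above the other 6, which overlapped, and the change was 0.54 (SE 0.069, adjusted p = 0.000187). Of the 4 members whose start windows hold the Egr letters, Adamts14 was thus higher in EGR1OV, Mmp11 was lower, and Mmp14 and Mmp24 were not called.

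Adamts12 and Adamts7 cut the cartilage oligomeric matrix protein. Adamts12 (chromosome 15, bases 11064790 to 11349231) was at 4.35, 3.94 and 3.72 FPKM in Sham, 4.98, 4.50 and 4.70 in H/R, and 2.30, 2.45 and 2.29 in EGR1OV. The groups did not overlap, with H/R highest and EGR1OV lowest. Adamts12 fell by 0.58 in EGR1OV (SE 0.059, adjusted p = 4.01e-05), and its change in H/R was 0.20 (adjusted p = 0.062). Adamts7 had means of 2.83, 2.73 and 3.14 FPKM and was not called.

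Adamts16, a gene studied in kidney and gonad development and in blood pressure (chromosome 13, bases 70727802 to 70841811, minus strand), was called in all 3 comparisons, although its H/R call did not hold under several alternatives. It was at 1.25, 1.07 and 1.19 FPKM in Sham, 1.86, 1.61 and 1.67 in H/R, and 0.37, 0.51 and 0.513 in EGR1OV. No 2 groups overlapped, and H/R and EGR1OV stood on opposite sides of Sham. The EGR1OV mean was 0.397 times and the H/R mean 1.46 times that of Sham. The change was -0.57 in EGR1OV (SE 0.073, adjusted p = 0.000201) and 0.32 in H/R (SE 0.073, adjusted p = 0.0249). The H/R call was lost with the replicate number as a block (adjusted p = 0.0573), with a pseudocount of 0.1 (0.0545), with no filter on low values (0.0693) and without any 1 of 5 of the 6 libraries compared.

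Adamts6 and Adamts10 act on fibrillin microfibrils. Adamts6 was at 7.94, 7.91 and 7.61 FPKM in Sham, 8.74, 8.33 and 8.31 in H/R, and 11.0, 10.3 and 10.03 in EGR1OV, so that the groups did not overlap. The change in EGR1OV was 0.38 (SE 0.042, adjusted p = 7.29e-05), just under the 1.3-fold used for calls here. At a log2 change of 0.378, the threshold as the study states it, Adamts6 was called, which made 14 members for EGR1OV against Sham. It was also called without Sham replicate 1 or 2 or EGR1OV replicate 2 or 3 (0.39 to 0.41). Adamts10 had means of 1.86, 2.29 and 1.91 FPKM and was not called.

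H/R against Sham asks which members respond to the injury model itself. The answer was 1 of 24, Adamts16, against 4.25% of all 13985 rows (1.6% in the higher direction), and the call was lost without Sham replicate 1, 2 or 3, H/R replicate 1 or H/R replicate 3 (adjusted p = 0.0519 to 0.079 by limma). By adjusted p alone, Timp3 was added, which made 2 of 24 members and 11.7% of all rows. The median log2 change of the members was 0.03 and that of all rows -0.03. The H/R and Sham libraries did not overlap in 8 of 24 members, and in 33.6% of all rows. The called share of the members in H/R, 4.17%, was thus near that of all rows. In the same libraries 2 of 9 macrophage markers were lower and 2 of 4 fibroblast markers (Col1a1 and Col1a2) higher, and their part in the level of Adamts16 was not tested.

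Setting EGR1OV against H/R compares the overexpressing cells with the injured ones. Here 11 of 24 members were called, 5 higher and 6 lower, against 18.9% of all rows (11.9% higher and 6.94% lower), and 19 did not overlap (58.6% of all rows). They were those called against Sham apart from Mmp10 and Mmp11. Mmp10 had a change of 0.37 (SE 0.095, adjusted p = 0.00931 by limma), just under 1.3-fold. It was called higher than in H/R with a pseudocount of 0.1 (0.56) and by voom on recovered reads (0.60). The same held without H/R replicate 1 (0.41) or EGR1OV replicate 2 (0.44). The change was 0.67 for Timp1 (SE 0.045, adjusted p = 2.2e-06), -0.74 for Timp3 (SE 0.039, adjusted p = 4.54e-07) and -0.89 for Adamts16 (SE 0.073, adjusted p = 9.07e-06). Timp3, Adamts12 and Adamts16 lay further from H/R than from Sham, since H/R stood above Sham in them. Mmp9 lay nearer, with 0.45 (SE 0.048, adjusted p = 5.33e-05). This comparison shares its libraries with both others, so its calls are not a repeat of theirs. Mmp12 was called at -0.38 (adjusted p = 0.00341), close to the threshold, and not without EGR1OV replicate 2 or 3 or H/R replicate 1 or 2 (-0.33 to -0.37).

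The Mmp sum came to 215 ± 3.08 FPKM for Sham, 222 ± 3.24 for H/R and 241 ± 5.21 for EGR1OV, and the lowest EGR1OV library (238) was above the highest of the others (226). The Timp sum was 234 ± 5.13, 232 ± 6.64 and 274 ± 4.66 FPKM, and the Adamts sum 114 ± 2.93, 118 ± 2.95 and 106 ± 0.683. By role, the gelatinases summed to 83.9 ± 2.56, 93.0 ± 4.02 and 114 ± 2.65 FPKM and the transmembrane membrane-type enzymes to 105 ± 5.4, 104 ± 1.06 and 100.1 ± 0.659. Enzymes that cut hyalectans, the group of aggrecan and versican, summed to 94.2 ± 2.14, 96.0 ± 3.47 and 85.3 ± 1.12 FPKM. These sums weigh each member by its level, follow from the values above and were given no test.

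The 20 members under 0.5 FPKM had means of 0.00106 to 0.479 FPKM over the 9 libraries and are best read as counts. They were Adamts2, Adamts3, Adamts8, Adamts9, Adamts13, Adamts15, Adamts17, Adamts18, Adamts19, Adamts20, Mmp3, Mmp7, Mmp8, Mmp19, Mmp20, Mmp21, Mmp25, Mmp27, Mmp28 and Timp4. Reads were recovered from FPKM, exon length and depth and were whole numbers within 0.02 for 40 of the 44 members in every library, though not for Adamts5, Adamts10, Adamts19 and Mmp25. The counts below cover counting error only.

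**Figure D5:**
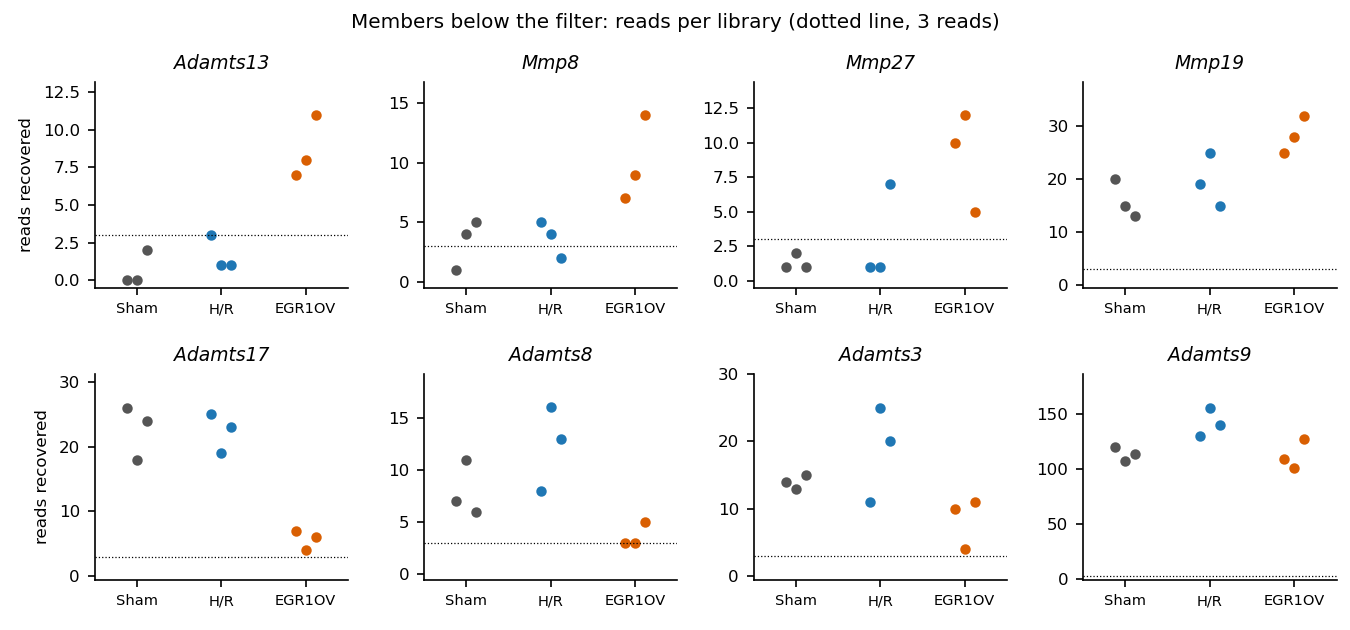
Reads recovered per library for 8 members under 0.5 FPKM, on linear axes, with the dotted line at the floor of 3 reads. Adamts13, Mmp8, Mmp27 and Mmp19 have their highest counts in EGR1OV and Adamts17 its lowest, while Adamts9 overlaps between EGR1OV and Sham.

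Adamts13, which trims von Willebrand factor in blood and is made mainly by liver stellate cells, gave 0, 0 and 2 reads in Sham, 3, 1 and 1 in H/R, and 7, 8 and 11 in EGR1OV. The EGR1OV counts were above the floor in all 3 libraries and the Sham counts below it. In limma voom on recovered reads, run over 20647 rows with at least 10 reads in all (18.2% of them called in EGR1OV against Sham, 4.78% in H/R against Sham and 21.3% in EGR1OV against H/R), it was called in EGR1OV with an adjusted p = 0.00129. This fit was chosen after the values had been seen. Adamts13 reached the 10 reads needed only through EGR1OV, the group where it is high (26 reads, against 2 in Sham and 5 in H/R). The collagenase Mmp8, best known from neutrophils, gave 1, 4 and 5 reads in Sham, 5, 4 and 2 in H/R, and 7, 9 and 14 in EGR1OV (adjusted p = 0.0291 by voom against Sham).

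Mmp27, the gene next to Mmp8 on chromosome 9 (7571396 to 7581885), gave 1, 2 and 1 reads in Sham, 1, 1 and 7 in H/R, and 10, 12 and 5 in EGR1OV (adjusted p = 0.0102 by voom). Its H/R and EGR1OV counts overlap. Mmp19 gave 20, 15 and 13 reads in Sham, 19, 25 and 15 in H/R, and 25, 28 and 32 in EGR1OV, and its change of 0.84 on the voom scale had an adjusted p = 0.0251. It shares 789 exon bases with Tmem198b, so its reads are uncertain. Members of the chromosome 9 row under the filter gave more reads in EGR1OV than in Sham, summed over 3 libraries. These were Mmp3 (10 against 3), Mmp7 (7 against 1), Mmp8 (30 against 10), Mmp20 (9 against 6) and Mmp27 (27 against 4). Of these voom called Mmp8 and Mmp27 against Sham, and the Sham and EGR1OV libraries overlapped in Mmp3, Mmp7 and Mmp20. Among members of the row above the filter, Mmp10 and Mmp13 were called higher and Mmp12 lower. The share of all rows with higher summed reads was not counted.

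In the other direction, Adamts17, which like Adamts10 acts on fibrillin microfibrils (chromosome 7, bases 66839735 to 67153171), gave 26, 18 and 24 reads in Sham, 25, 19 and 23 in H/R, and 7, 4 and 6 in EGR1OV. The EGR1OV counts were all below the other 6, and the change of -1.90 on the voom scale (SE 0.423) had an adjusted p = 0.00056. Adamts8 gave 7, 11 and 6 reads in Sham, 8, 16 and 13 in H/R, and 3, 3 and 5 in EGR1OV, and voom called it against H/R (adjusted p = 0.0145) and not against Sham (0.156). Adamts3 gave 14, 13 and 15, then 11, 25 and 20, and then 10, 4 and 11 reads, again called only against H/R (adjusted p = 0.0348). Adamts19 was also called lower against Sham (adjusted p = 0.0035), but its reads were not whole numbers and its level is uncertain.

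The rest gave no call. Adamts9, the highest of them at 340, 425 and 337 reads summed over the libraries of Sham, H/R and EGR1OV, changed by 0.00 in EGR1OV against Sham (adjusted p = 0.991 by voom). Mmp28 summed to 77, 47 and 66 reads and Adamts2 to 22, 13 and 28. Adamts15, Adamts18, Adamts20 and Mmp25 summed to at most 17 reads in any group. Mmp21 and Timp4, with 5 and 1 reads in all libraries, and Mmp7, with 9, were below the 10 reads needed and were not fitted.

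Other genes of the same pathway were read from fixed lists. For the counts below, 9.87% of all 13985 rows tested were called higher and 6.51% lower in EGR1OV. In H/R these shares were 1.6% and 2.65%. The plasminogen system activates several pro-Mmp enzymes through plasmin. Of its 9 tested genes 2 were higher and 2 lower in EGR1OV (median -0.13 on the log2 scale). Plgrkt, a plasminogen receptor, was at 5.42 ± 0.501 FPKM in Sham and 9.34 ± 0.391 in EGR1OV (change 0.69, adjusted p = 1.53e-05). The subunits of the annexin receptor for plasminogen both fell, Anxa2 from 212 to 154 FPKM (-0.46, adjusted p = 1.77e-05) and S100a10 from 153 to 113 (-0.43, adjusted p = 2.56e-05). In H/R the 1 call was Serpinb2, an inhibitor of the plasminogen activators, at 0.739 ± 0.232 FPKM in Sham and 1.95 ± 0.269 in H/R (0.77, adjusted p = 0.00708).

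Of 7 tested Adam proteases, which shed cell surface proteins, 1 was higher and 3 were lower in EGR1OV (median 0.06). Adam8, the one higher, was at 1.33 ± 0.144 FPKM in Sham and 4.66 ± 0.399 in EGR1OV (1.28, adjusted p = 1.02e-06). Adam19 (9.53 to 4.42 FPKM; -0.96, adjusted p = 2.49e-07) and Adam12 (39.3 to 22.7 FPKM; -0.77, adjusted p = 1.29e-08) had the largest falls. None was called in H/R.

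Of 10 tested activators, receptors and other regulators, 3 were higher and 2 lower in EGR1OV (median 0.20). Lcn2, whose product lipocalin 2 binds MMP9 and is a marker of tubule injury, had means of 151 ± 4.58 FPKM for Sham, 161 ± 2.79 for H/R and 848 ± 8.97 for EGR1OV (2.48, adjusted p = 1.38e-11). Pcsk6, a proprotein convertase, fell from 6.37 to 2.71 FPKM (-0.99, adjusted p = 7.06e-07). Thbs1, a matrix protein that binds Mmp enzymes, fell from 1282 to 794 FPKM (-0.69, adjusted p = 1.77e-07). In H/R, Thbs1 was higher (0.27, adjusted p = 0.00167) and so was Cd44, a receptor that can hold MMP9 at the cell surface (79.2 to 106 FPKM; 0.42, adjusted p = 0.000451). Cd44 was also called higher in EGR1OV, with a mean of 115 FPKM (0.53, adjusted p = 3.59e-06). The membrane inhibitor Reck was at 1.35, 1.25 and 1.09 FPKM and was not called.

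Of the ADAMTS-like proteins, which lack the protease domain, 2 of 7 were tested. Adamtsl4 was higher in EGR1OV (2.84 to 4.96 FPKM; 0.63, adjusted p = 4.87e-05), and Thsd4 was called lower at under 1 FPKM. The proteoglycans that Adamts enzymes cut were low or unchanged in call: Vcan (16.9, 16.8 and 14.5 FPKM) and Bgn (6.86, 7.28 and 6.66) were the 2 of 7 tested, and neither was called. Aggrecan (Acan), the substrate after which Adamts4 and Adamts5 are known, had a mean of 0.00797 FPKM in Sham. Of 6 cathepsins, lysosomal proteases, Ctsz was higher in EGR1OV (37.3 to 48.8 FPKM; 0.38, adjusted p = 4.65e-05) and Ctss, which macrophages express strongly, was lower (19.9 to 6.31 FPKM; -1.52, adjusted p = 1.62e-06) beside the macrophage markers.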

How the data were processed

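RNA-Seq was performed on 9 libraries, 3 each of Sham, H/R and EGR1OV, grouped by their titles. The authors deposited 1 table of FPKM holding 1 column for each library, replicates not pooled. The submitters' processing notes name build mm9, Bowtie2 2.2.3, HISAT2 2.1.0 and TopHat2, without roles, and the counter and annotation are not given in the sources used here. Yet 94.6% of gene positions in the table equal GENCODE M21 (GRCm38) and 99.8% of gene identifiers are found there, so coordinates are printed as the table gives them. The depth of 16183617 to 18384024 reads was recovered from FPKM and exon length. Of 154423 values of 1 to 1000 reads, 98.7% were whole within 0.02 reads. Intervals and floors cover counting error only.

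Members and gene lists were chosen with earlier results of these data known. Rows with a mean of at least 0.5 FPKM (13985) were tested as log2(FPKM + 1) with limma 3.58.1 in R 4.3.3 (lmFit and eBayes with trend, all 9 libraries in 1 fit, two-sided, Benjamini-Hochberg). Calls needed an adjusted p below 0.05 and a fold of 1.3 (1.2 where H/R was set against Sham). For contrasts with Sham the study states its thresholds as log2 changes of 0.378 and 0.263. These are the logarithms of the same folds cut to 3 decimals, so calls here were very slightly stricter. Given in full were the Timp genes and members called in any comparison whose mean reached 1 FPKM in a group. From each pathway list up to 3 called genes with the largest change were named. Members under the filter were fitted with limma voom on recovered reads, chosen after the data had been examined. The code was tested on simulated data. Motifs were searched in RefSeq promoter windows. Python 3.11.15 with pandas 2.3.3 was used. Protein sequences were not used here. The strand setting of the counting is not stated, so genes that overlap on opposite strands may share reads, and 1 such result is not reported here.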

Additional observations from a re-analysis of the deposited data

Results flagged for a closer look

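In 3 members all H/R libraries and all EGR1OV libraries lay on opposite sides of the Sham libraries, and the direct comparison of EGR1OV with H/R passed the threshold. That comparison tests only whether EGR1OV differs from H/R, and not whether they lie on opposite sides of Sham. The members were picked by this separation in the same values, and the share of all rows with it was not counted. For Adamts16 the log2 difference of EGR1OV from H/R was -0.889 (adjusted p = 9.07e-06), with all 3 EGR1OV libraries (0.37 to 0.513 FPKM) below Sham and all 3 H/R libraries (1.61 to 1.86 FPKM) above it. For Timp3 it was -0.736 (adjusted p = 4.54e-07), with the EGR1OV libraries at 23.1 to 25.0 FPKM and the H/R libraries at 39.2 to 42.9 FPKM on either side of Sham (35.5 to 36.4 FPKM). For Adamts12 it was -0.775 (adjusted p = 4.86e-06), with the EGR1OV libraries at 2.29 to 2.45 FPKM and the H/R libraries at 4.50 to 4.98 FPKM on either side of Sham (3.72 to 4.35 FPKM). The H/R change of Adamts12 by itself, 0.20, had an adjusted p = 0.062.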

How the results depend on the processing

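No call changed direction under any alternative that was run. For EGR1OV against Sham, 13 members were called, and 7 at a mean of at least 5 FPKM and 1 at 2-fold, both of which remove members by construction. Leaving out each library in turn gave 12 to 14. With the log2 thresholds cut to 3 decimals, as the study states them for contrasts with Sham, the counts were 14, 1 and 11. They are for EGR1OV against Sham, H/R against Sham and EGR1OV against H/R, and this alternative was added after seeing the data. For EGR1OV against H/R, 11 were called, 6 at a mean of at least 5 FPKM and 1 at 2-fold, and 10 to 11 with a library left out. Quantile normalization changed this split to 4 higher and 7 lower, since Mmp9 came to 0.37 and was lost and Mmp11 to -0.39 and was gained. The single call of H/R against Sham, Adamts16, gave way to 0 calls with a pseudocount of 0.1 (adjusted p = 0.0545), at 2-fold, without a low-value filter (0.0693) and with the filter set at 5 FPKM, where Adamts16 is not tested. It became 2 calls with no fold threshold (Timp3 added) and 2 by voom on recovered reads (Adamts10 added), and 0 to 1 with a library left out. The cause was not tested.

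The groups share replicate numbers. Correlations of same-numbered libraries ran from -0.195 to 0.263, and those of differently numbered libraries from -0.222 to 0.179. With 3 libraries in a group, these ranges cannot decide whether the numbers pair the samples. With the replicate block 13, 0 and 11 members were called, and Adamts16 in H/R had an adjusted p of 0.0573.

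Without the member of highest level (Mmp14, Adamts1 or Timp1), the sums in Sham, H/R and EGR1OV came to 126.5, 134.4 and 151.0 FPKM for Mmp, 63.5, 66.6 and 54.8 for Adamts, and 137.7, 141.9 and 129.6 for Timp, so the higher Timp sum in EGR1OV rests on Timp1. With median-ratio scaling the Mmp sum in H/R was 227.9, the Adamts sum in EGR1OV 104.3 and the Timp sum in EGR1OV 268.4 FPKM. With a library left out the means in Sham, H/R and EGR1OV ran from 213.6 to 216.7, 220.7 to 223.9 and 237.9 to 242.5 FPKM for Mmp, 112.8 to 115.4, 116.2 to 119.2 and 106.1 to 106.8 for Adamts, and 231.3 to 236.4, 229.5 to 235.9 and 272.4 to 276.7 for Timp. Depth limits what can be read below about 3 reads, which covers Timp4, Mmp21 and most libraries of Mmp3 and Mmp7.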
